A study of Homo sapiens with 47 samples.

Results

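The semaphorins, plexins and neuropilins are a family of guidance ligands and their receptors, and they were followed here in human embryonic stem cells (hESCs) on their way to pre-neural progenitors (PNPs) and neural crest (NC). Members were chosen by gene family from a list of symbols matched to the Ensembl identifiers of the tables, and the list holds 31 of the 58051 genes listed. It has 20 semaphorin ligands, 9 plexins and 2 neuropilins. All 31 members were found, and all 31 passed the filter on low counts in both models.

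RNA was sequenced from 47 cultures or culture fractions of the WA09 (H9) hESC line, from 3 separate differentiations numbered 1 to 3. The starting group, t0, was undifferentiated hESCs kept in mTeSR1 on Matrigel, and 36 h was the neuromesodermal progenitor (NMP)-like stage, reached in N2B27 medium lacking vitamin A with CHIR-99021 (a WNT pathway agonist), rhFGF2, AGN193109 (a retinoic acid receptor inverse agonist) and Y-27632 (a ROCK inhibitor). Groups P1 to P10 were the cultures passaged onward from there every 3 to 4 days, in the same additives, so that every group after t0 shared these agents. At P5 and P8, an epithelial (EPI) and a mesenchymal (MES) fraction were taken from the culture by the ease with which cells came off the dish in TrypLE. Each of the 16 groups had 3 libraries except P9, which had 2, from differentiations 1 and 2. All groups came from a single cell line, the P1 to P10 libraries are whole cultures that hold EPI and MES cells together, and the fractions are enriched rather than pure. Because these are bulk samples, fewer cells of a type and less RNA per cell cannot be told apart in any result given here.

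Semaphorins bind plexins on neighbouring or distant cells, and the bound plexin acts through small GTPases to collapse, turn or hold back the moving edge of the cell. Class 3 semaphorins are secreted, and most of them need a neuropilin to reach a plexin, whereas the class 4, 5, 6 and 7 ligands are anchored in the membrane and generally bind plexins directly. Neuropilins also bind VEGF, and in the embryo semaphorin signals through neuropilins keep migrating trunk NC cells in segmental streams, while plexins of the A class steer growing axons of the spinal cord.

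Upstream sequence is shown for 4 members as examples of those called higher below, 2 ligands (SEMA5A and SEMA3C) and 2 plexins (PLXNA2 and PLXNC1). They were picked after their values were seen, among members whose most upstream listed window lies clear of the annotated gene, and SEMA3B, SEMA4G, SEMA6D and PLXNA3 are other members called higher that have such a window. Each run is the 250 bases before a RefSeq start on GRCh38.p14, written 5′ to 3′ on the strand of the gene, with capitals marking GC box letters (GGGCGG or CCGCCC, the letters read by SP and KLF factors). The windows are chr5:9546076-9546325 on the minus strand for SEMA5A, chr7:80922390-80922639 on the minus strand for SEMA3C, chr1:208244385-208244634 on the minus strand for PLXNA2 and chr12:94148327-94148576 on the plus strand for PLXNC1.
SEMA5A: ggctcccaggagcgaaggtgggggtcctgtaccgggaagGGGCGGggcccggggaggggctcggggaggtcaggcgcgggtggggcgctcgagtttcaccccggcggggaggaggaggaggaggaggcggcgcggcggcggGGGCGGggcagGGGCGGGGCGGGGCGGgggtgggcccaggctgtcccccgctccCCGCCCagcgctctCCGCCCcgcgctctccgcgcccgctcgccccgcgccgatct
SEMA3C: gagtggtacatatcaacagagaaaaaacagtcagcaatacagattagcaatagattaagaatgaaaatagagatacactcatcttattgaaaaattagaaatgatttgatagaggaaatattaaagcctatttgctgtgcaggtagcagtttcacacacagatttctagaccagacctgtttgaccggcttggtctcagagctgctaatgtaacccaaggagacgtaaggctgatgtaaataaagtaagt
PLXNA2: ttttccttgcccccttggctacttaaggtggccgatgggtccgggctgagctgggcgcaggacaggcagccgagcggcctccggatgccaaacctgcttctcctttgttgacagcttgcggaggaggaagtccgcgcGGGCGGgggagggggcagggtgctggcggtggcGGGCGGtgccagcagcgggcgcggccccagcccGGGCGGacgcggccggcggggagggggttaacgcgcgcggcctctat
PLXNC1: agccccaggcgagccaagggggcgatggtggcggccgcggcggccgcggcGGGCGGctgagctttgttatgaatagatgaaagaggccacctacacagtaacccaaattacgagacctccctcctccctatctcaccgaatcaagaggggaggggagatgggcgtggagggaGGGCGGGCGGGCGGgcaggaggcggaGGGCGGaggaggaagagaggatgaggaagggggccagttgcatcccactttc
The SEMA5A window holds 7 GC boxes, the PLXNC1 window 5, the PLXNA2 window 3 and this SEMA3C window 0, with matches allowed to overlap each other. The G and C content is 82% for SEMA5A, 72.4% for PLXNA2, 65.2% for PLXNC1 and 36.4% for SEMA3C. SEMA3C has a second RefSeq start, and the window before it holds 3 GC boxes. PLXNC1 has one too, with 1 GC box in its window and a G and C content of 53.6%.

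Of the 31 members, 27 matched the RefSeq promoter table, with 48 windows in all, and SEMA3A, SEMA6A, SEMA6B and NRP1 had no entry. A GC box was found in 30 of the 48 windows (62.5%) and in 24 of the 27 members, against 42.6% of all 35116 windows of the same length. The median G and C content was 64.8% in the windows of members and 58% in all windows. Counted on both strands, the E-box letters CAGGTG or CACCTG stood in 12.5% of the members' windows and 17.5% of all windows, the TCF/LEF core CTTTGA or TCAAAG in 10.4% and 11.2%, and the T-box letters GGTGTG or CACACC in 10.4% and 14.2%. The letters searched differ between motifs, so no match counts for more than 1 of them, and a match is a description of the sequence only.

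Library totals ran from 13029491 to 64082859 expected counts with a median of 47292229. The labels were checked by marker genes. Summed over 5 hESC markers (POU5F1, NANOG, TDGF1, DPPA4, LIN28B), TPM (a level scaled by transcript length and by library) lay between 3082 and 3452 at t0 and at most 50.7 at P10. Summed over 5 NMP markers (TBXT, CDX1, NKX1-2, WNT8A, FGF17), TPM lay between 14.9 and 17.4 at t0 and between 302 and 1396 at 36 h. At P1 the 3 differentiations stood apart, with hESC marker sums of 1294.8, 246.1 and 233.8 TPM, so that differentiation 1 lagged the other two. One P10 library, from differentiation 1, also stood apart. Its sum over 6 NC markers was 186 TPM against 809 and 892 TPM in the other P10 libraries, and its sum over 5 epithelial progenitor markers was 444.7 TPM against 15.4 and 25.4 TPM. The tests of P9 and P10 against P8 and against P5 are therefore given with and without that library, and all other values at P10 include it. CDH1 was under 1 TPM in all libraries of both P5 fractions and of the P8 EPI fraction. SOX10, on the NC list, was under 1 TPM in all P9 and P10 libraries. Endothelial markers, of a cell type known for neuropilin and PLXND1 expression, summed to 15.0 TPM or less in every library.

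Per transcript length, the leading members changed places along the course. Among the ligands, SEMA6A, a transmembrane ligand of PLXNA2 and PLXNA4, came first in 3 of 3 libraries at t0, where it held 34.6% ± 2.3 (SD, n = 3) of all semaphorin TPM. It came first in 3 of 3 libraries at 36 h, and again at P8 (23.4% ± 2.5, n = 3) and in the P8 EPI fraction (23.8% ± 2.6, n = 3). SEMA5A, a membrane ligand with thrombospondin repeats, held 1.63% ± 0.064 at t0 (n = 3) and 20.7% ± 1.7 at P5 (n = 3). It came first in 2 of 3 P5 libraries, with SEMA3A first in the third. The mean share of SEMA3A at P5 was larger, at 21.3% ± 7.1 (n = 3). In the P5 MES fraction SEMA5A held 30.2% ± 7.2 (n = 3) and in the P5 EPI fraction 17.8% ± 1.1 (n = 3). In P5 EPI SEMA3A held 20.9% ± 5.2 (n = 3) and came first in 2 of 3 libraries. The mean share of SEMA6A there was also above that of SEMA5A. The ligands summed to 434 ± 28.9 TPM at t0, 348 ± 54.8 TPM at P5 and 373 ± 22.8 TPM at P10 (SD, n = 3 each).

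Among the plexins, PLXNB1, the receptor of SEMA4D, came first at t0 in 3 of 3 libraries, with 38.2% ± 4.7 of plexin TPM (SD, n = 3). PLXNB2, a receptor of SEMA4C, held 26.3% ± 2.4 there, and it came first in 3 of 3 libraries at P5 (30.6% ± 0.84) and at P10 (37.4% ± 6.6). The fractions divided this order at P5, since PLXNB1 came first in 3 of 3 EPI libraries and PLXNB2 in 3 of 3 MES libraries. The summed plexin level was 201 ± 12.3 TPM at t0 and 317 ± 34.3 TPM at P10 (SD, n = 3 each). The neuropilins summed to 42.5 ± 5.9 TPM at t0, 26.6 ± 12.1 TPM at 36 h and 214 ± 74.1 TPM at P3 (SD, n = 3 each). NRP2 made up 97.5% ± 0.88 of it at t0, 63.4% ± 29.9 at 36 h and 90.1% ± 7.3 at P5 (n = 3 each).

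**Figure D1:**
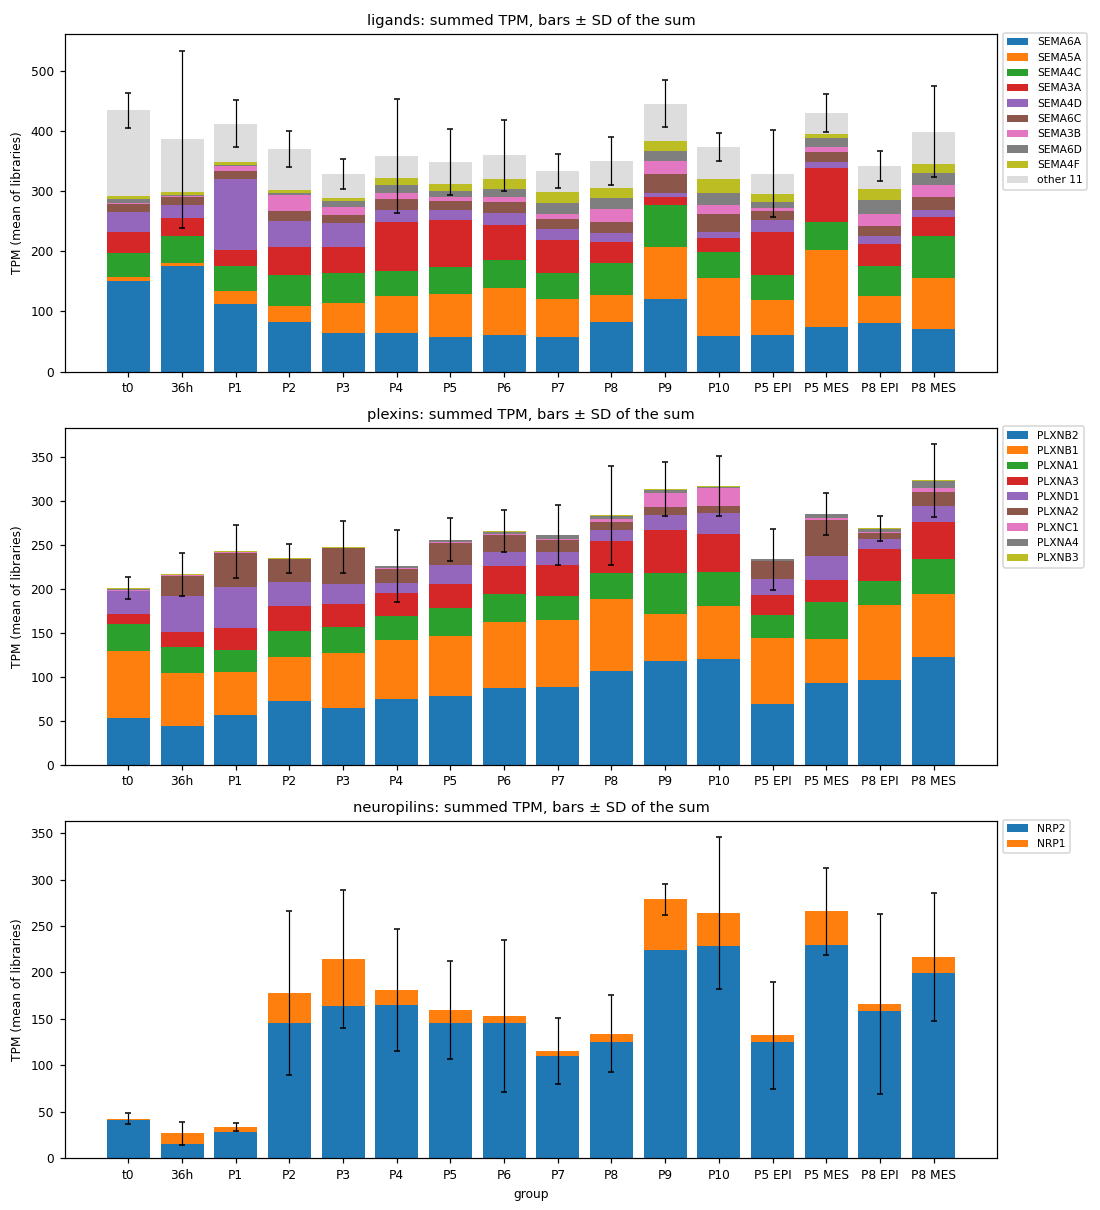
Stacked bars give the mean TPM of each member in each of the 16 groups, for ligands, plexins and neuropilins, and error bars are ± SD of the summed level over 3 libraries (2 at P9). SEMA6A fills the largest share of the ligand bar at t0, while the neuropilin bar goes from 42.5 TPM at t0 to 214 TPM at P3. At P5 SEMA3A held 21.3% and SEMA5A 20.7% of ligand TPM, as means of the shares in single libraries.

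Over the 12 time points as a whole, 27 of 31 members passed the test for any change (edgeR quasi-likelihood test, adjusted p under 1%), where 56% of all 21649 genes tested did so. These were 17 of 20 ligands, 8 of 9 plexins and 2 of 2 neuropilins. The members that did not pass were SEMA3A (adjusted p = 0.222), SEMA6A (0.0389), SEMA7A (0.0131) and PLXNB1 (0.0384), all by edgeR. Without differentiation 2 the count was 10 of 31 (16.9% of all genes), and without differentiation 3 it was 16 of 31 (23.2% of all genes). The step comparisons below call a member when the adjusted p is under 1%, the change is at least 2-fold and the mean over the compared libraries is at least 100 normalized counts. Neighbouring steps share a group of libraries, so they are not independent of each other.

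**Figure D2:**
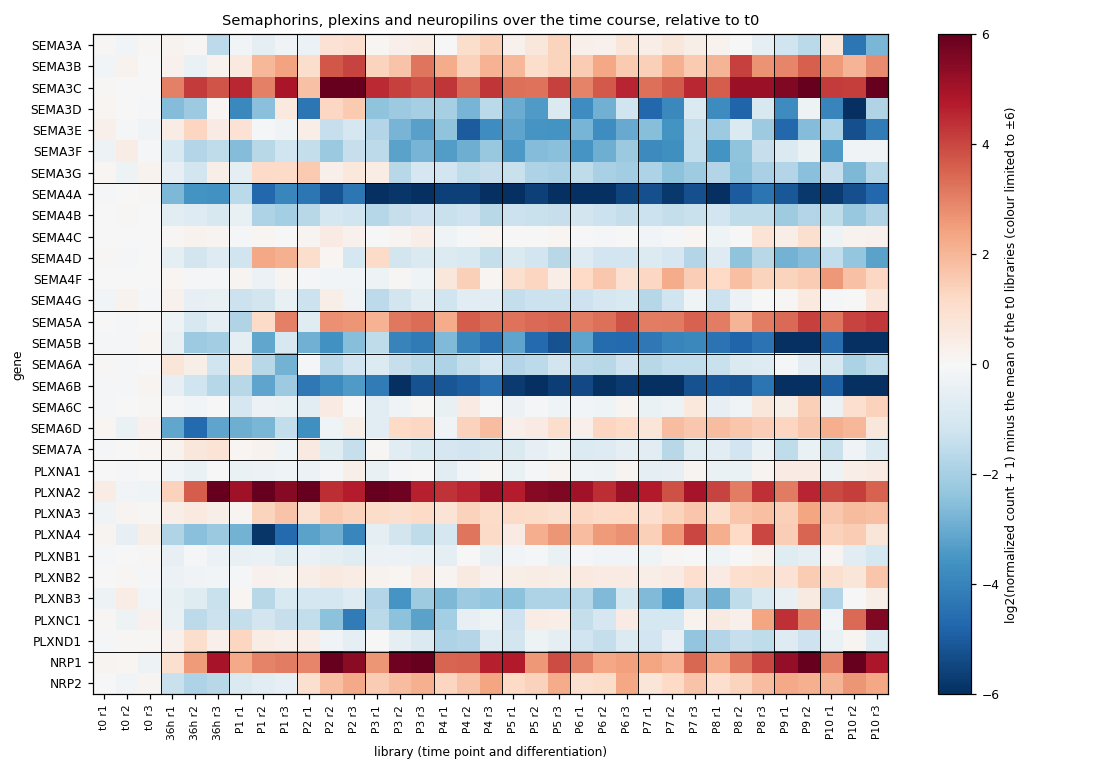
Each column is 1 of 35 whole-culture libraries in order of time point and differentiation, each line 1 of 31 members, and colour gives log2 of the normalized count plus 1, minus its mean in the t0 libraries, limited to 6 in either direction. SEMA4A, SEMA5B and SEMA6B turn blue after t0 while SEMA3C, PLXNA2 and NRP1 turn red, and NRP2 is blue at 36 h and red from P2.

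The comparison of 36 h with t0 covers entry into the NMP-like state. Over it NRP2, SEMA4A and SEMA6D fell and SEMA3C and PLXNA2 rose. That is 2 members called higher and 3 called lower of 31, where 1.33% and 1.39% of all genes tested were called higher and lower. The median log2 fold change was -0.25 over the members and -0.01 over all genes. Values below are normalized counts in differentiations 1, 2 and 3 in that order.

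SEMA3C, a secreted ligand that binds both neuropilins and guides NC cells to the outflow tract of the heart, stood at 22.8, 21.8 and 21.4 at t0 and 188, 416 and 314 at 36 h. All 3 libraries at 36 h were above all 3 at t0, and the log2 fold change was 3.76, SE 0.75, adjusted p = 0.00164. SEMA4A, a membrane ligand best known from T cell costimulation, stood at 751, 778 and 813 at t0 and 120.4, 64.6 and 62.5 at 36 h, without overlap, at a log2 fold change of -3.29, SE 0.57, adjusted p = 0.000442. SEMA6D, a transmembrane ligand of PLXNA1, went from 742, 520.1 and 811 at t0 to 77.4, 25.4 and 75.8 at 36 h, again without overlap, with a log2 fold change of -3.53, SE 0.67, adjusted p = 0.0011.

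PLXNA2, the plexin that SEMA6A binds, stood at 140.1, 91.2 and 87.3 at t0 and 275, 1296 and 10905 at 36 h. The groups did not overlap, but the 36 h libraries were themselves far apart, with differentiation 3 highest. The log2 fold change was 5.16, SE 0.99, adjusted p = 0.00124. Without differentiation 3 it was 2.76 with an adjusted p of 0.148. NRP2, the co-receptor of SEMA3F and VEGFC, fell from 3851, 3559 and 4433 at t0 to 1536, 1072 and 1231 at 36 h, with every 36 h library under every t0 library and a log2 fold change of -1.59, SE 0.24, adjusted p = 0.000131. NRP1, the co-receptor of SEMA3A, stood at 92.4, 89.1 and 66.7 at t0 and 161, 487 and 2582 at 36 h, without overlap. edgeR did not call it (log2 fold change 3.21, SE 0.95, adjusted p = 0.028), DESeq2 did (3.15, adjusted p = 0.00244), and without differentiation 1 edgeR did too (4.12, adjusted p = 0.0051). Leaving out differentiation 2 left 0 of the 5 calls (NRP2 then had an adjusted p of 0.0449), and leaving out differentiation 3 left NRP2 alone (adjusted p = 0.00732, edgeR). Calls over all genes fell too, to 0.257% higher and 0.146% lower without differentiation 2 and to 0.281% and 0.148% without differentiation 3. With only the t0 and 36 h libraries in the model, edgeR kept the calls of NRP2, SEMA4A and SEMA6D (adjusted p = 0.00838, 0.00904 and 0.00752). SEMA3C and PLXNA2, the members that rose, were not called in that model. The share of all genes called in it is not given here, so whether this loss is particular to members cannot be told. The hESC marker sums were lower at 36 h too, between 946 and 2434 TPM against between 3082 and 3452 TPM. Epithelial progenitor sums fell without overlap, from between 569.7 and 662.8 TPM at t0 to between 248.7 and 426.1 TPM at 36 h. Sums over 6 neuron markers (TUBB3, STMN2, ELAVL3, ELAVL4, DCX, SNAP25) rose without overlap, from between 140.6 and 176.4 TPM to between 201 and 217.1 TPM. ELAVL4 and SNAP25 were under 1 TPM in all t0 and 36 h libraries. These sums thus came from the other genes of that list, which already had RNA in undifferentiated hESCs. The sums over 5 paraxial mesoderm markers (TBX6, MSGN1, MEOX1, TCF15, PAX3) were 12.1, 132.4 and 633 TPM at 36 h against between 7.3 and 9.7 TPM at t0, and they took the same order over the differentiations as PLXNA2 and NRP1. The part of any of these lists in these changes was not tested.

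From 36 h to P3, NRP2 turned back upward past its t0 level and SEMA6D, SEMA5A and SEMA3B rose, while SEMA6B fell. Of 31 members, 4 were called higher and 1 lower, beside 2.79% and 4.23% of all genes. Over the members the median log2 fold change was -0.16, and over all genes -0.05.

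NRP2 stood at 11358, 14415 and 17231 normalized counts at P3, against 1536, 1072 and 1231 at 36 h. Every P3 library was above every 36 h and every t0 library, and the log2 fold change was 3.42, SE 0.26, adjusted p = 1.28e-08. NRP2 was the 1 of these 5 members that stayed called whichever differentiation was left out, with log2 fold changes between 3.26 and 3.78. SEMA5A stood at 6326, 13338 and 15233 at P3 against 1228, 755 and 1012 at 36 h, without overlap, and had a log2 fold change of 3.37, SE 0.69, adjusted p = 0.000772. SEMA6D stood at 442, 1562 and 1606 at P3 against 77.4, 25.4 and 75.8 at 36 h, a log2 fold change of 4.19, SE 0.69, adjusted p = 9.99e-05. Its lowest P3 library, from differentiation 1, was still above all 3 libraries at 36 h.

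SEMA3B, a secreted ligand that signals through neuropilins, stood at 303, 397 and 1131 at P3 against 145, 90 and 138 at 36 h, a log2 fold change of 2.17, SE 0.58, adjusted p = 0.0072, with differentiation 3 highest. SEMA6B, a transmembrane ligand of PLXNA4, stood at 163, 37.9 and 79.3 at P3 against 2107, 1286 and 903 at 36 h, without overlap, and had a log2 fold change of -4.04, SE 0.59, adjusted p = 2.99e-05. Without differentiation 2 only NRP2 stayed called (adjusted p = 0.000998), and without differentiation 3 only NRP2 and SEMA6B (adjusted p = 7.53e-05 and 0.0036, edgeR). Over all genes 0.558% and 1.03% were then called higher and lower without differentiation 2, and without differentiation 3 the numbers were 215 and 359 of 21012 genes. When the model held only the 36 h and P3 libraries, 0 members were called, and 111 of all genes against 1520 in the larger model. The sum over 6 NC markers (SOX10, SNAI2, TWIST1, TFAP2B, PDGFRA, FOXD3) was between 6.5 and 107.2 TPM at 36 h and between 74.4 and 293 TPM at P3. The hESC marker sums went from between 946 and 2434 TPM to between 181.7 and 209.8 TPM, and the NMP marker sums from between 302 and 1396 TPM to between 88.8 and 188.2 TPM, both without overlap. The part of these lists in the members' values was not tested.

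**Figure D3:**
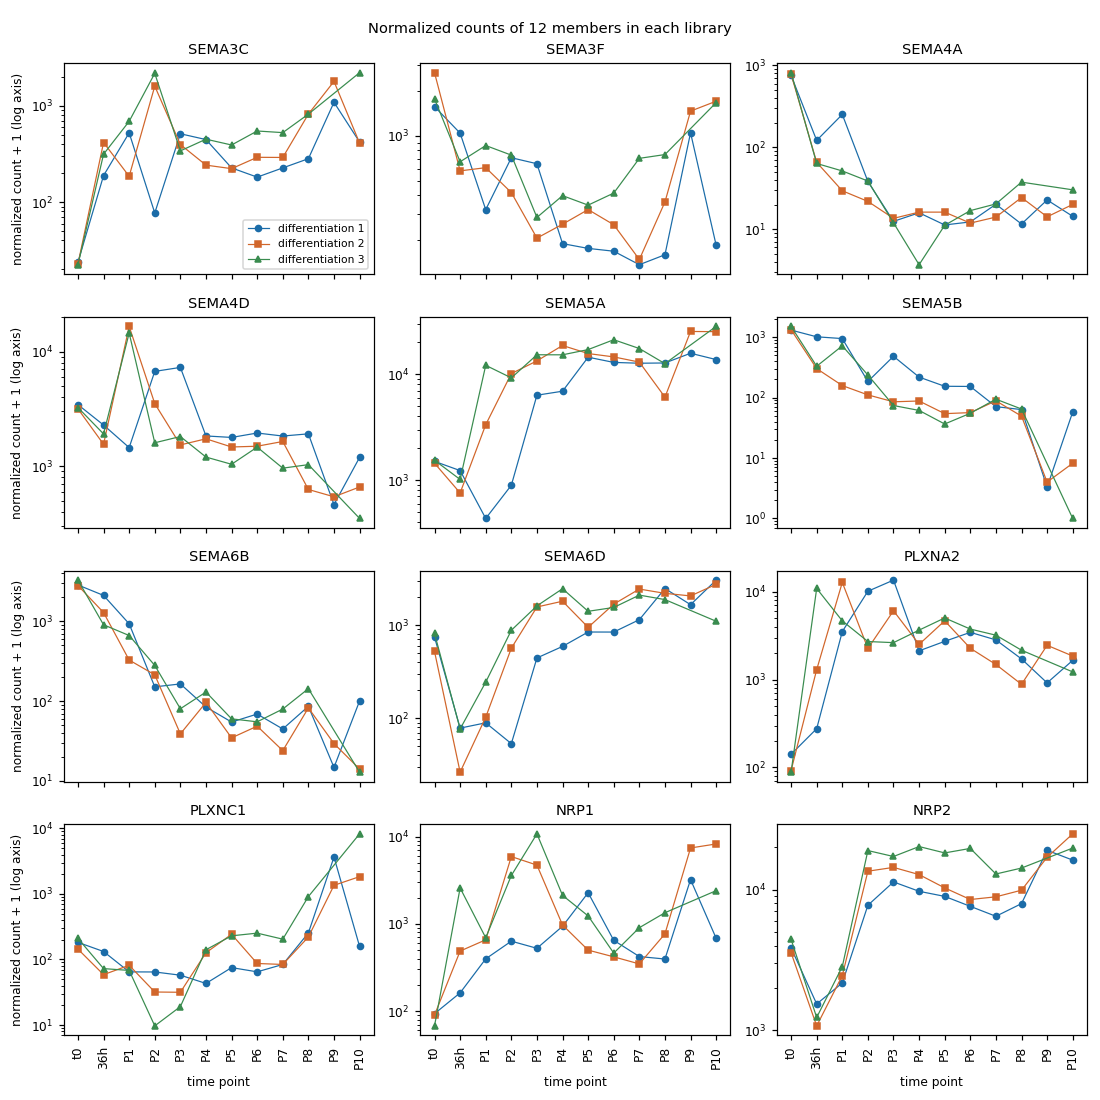
Normalized counts plus 1 on a log axis for 12 members in each whole-culture library, with time points from t0 to P10 on the horizontal axis and 1 line per differentiation. SEMA4D peaks at P1 in differentiations 2 and 3 and at P3 in differentiation 1, and NRP2 dips at 36 h in all 3 before it rises.

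SEMA4D and PLXNA2 passed through a short peak around these steps, and differentiation 1 reached it later. SEMA4D, the ligand of PLXNB1, stood at 1450.4, 16587 and 14521 normalized counts at P1, at 6714, 3514 and 1598 at P2 and at 7272, 1531 and 1812 at P3. Differentiations 2 and 3 were thus highest at P1 and differentiation 1 at P3, and by P5 the values were 1779.6, 1468 and 1037. At P1 SEMA4D held 30.2% ± 23.6 of all semaphorin TPM (SD, n = 3) and came first in 2 of 3 libraries. PLXNA2 peaked at 36 h in differentiation 3, at P1 in differentiation 2 and at P3 in differentiation 1, with 10905, 12776 and 13573 normalized counts. Over the 11 time points that all 3 differentiations share, the peak came latest in differentiation 1 for 9 members, in differentiation 2 for 1 and in differentiation 3 for 4. Another 5 members had the same peak time in all 3, and in the rest 2 differentiations shared the latest peak. Of the 9, SEMA3A, SEMA3B, SEMA4F and PLXNB1 peaked in differentiation 1 at P10, in the library set apart above, so they do not bear on these early steps. The paraxial mesoderm marker sums were 20.3, 367.5 and 360.5 TPM at P1, 333.3, 77.7 and 98.1 TPM at P2 and 267.6, 40.9 and 43.7 TPM at P3, so they too were high at P1 in differentiations 2 and 3 and later in differentiation 1, and their part in the SEMA4D and PLXNA2 values was not tested. The order of peaks is a description of 3 cultures and was not tested either.

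From P3 to P5 and from P5 to P8, no ligand, plexin or neuropilin differed past the threshold. edgeR called 0 of 31 members in either step, and DESeq2 also called 0. In the same steps edgeR called 0.00924% and 0.00462% of all genes higher and lower between P3 and P5, and 0.00462% in each direction between P5 and P8. DESeq2 called 0.124% and 0.143% of all genes between P3 and P5, and 0.593% and 0.12% between P5 and P8. At an unadjusted p under 0.05 there were 4 members from P3 to P5 (7.12% of all genes) and 6 from P5 to P8 (13.3% of all genes). The median log2 fold change from P3 to P5 was -0.13 over the members and -0.01 over all genes, and from P5 to P8 it was 0.24 and 0.03. These counts do not show that the members stayed level. NRP1, for example, stood at 524, 4722 and 10775 at P3, 2276, 499 and 1232 at P5 and 394, 767 and 1342 at P8, where libraries of each group overlapped those of the next.

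P5 was also set against t0, to describe the PNP stage against its starting cells. This comparison was added after the data had been seen, and it shares libraries with the steps above. The ligands SEMA3F, SEMA3G, SEMA4A, SEMA4B, SEMA4G, SEMA5B and SEMA6B fell, and SEMA3C, SEMA5A, the plexins PLXNA2 and PLXNA3 and both neuropilins rose. Of 31 members, 6 were called higher and 7 lower, beside 5.96% and 8.29% of all genes. All 7 members called lower were ligands, and the median log2 fold change was -1.30 over the 20 ligands, -0.21 over all members and -0.04 over all genes.

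Among the lowered ligands, SEMA4A stood at 10.3, 15.2 and 10.2 at P5 against 751, 778 and 813 at t0 (log2 fold change -6.02, SE 0.66, adjusted p = 1.44e-07). SEMA6B stood at 53.7, 33.7 and 59 at P5 against 2849, 2804 and 3276 at t0 (log2 fold change -5.98, SE 0.65, adjusted p = 1.39e-07). SEMA5B, the relative of SEMA5A with the same thrombospondin repeats, stood at 153, 53.3 and 35.6 at P5 against 1312, 1331 and 1511 at t0 (log2 fold change -4.44, SE 0.76, adjusted p = 5e-05). SEMA3F, the secreted ligand of NRP2, stood at 176, 321 and 344 at P5 against 1569, 2645 and 1769 at t0 (log2 fold change -2.91, SE 0.64, adjusted p = 0.00065). None of these 4 ligands had a P5 library as high as its lowest t0 library.

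Among the members that rose, SEMA5A stood at 14449, 15642 and 17053 at P5 against 1501, 1442 and 1538 at t0 (log2 fold change 3.37, SE 0.68, adjusted p = 0.000306), so that SEMA5A and SEMA5B, within the same class, moved in opposite directions. SEMA3C stood at 226, 222 and 392 at P5 against 22.8, 21.8 and 21.4 at t0 (log2 fold change 3.60, SE 0.74, adjusted p = 0.000378). PLXNA2 stood at 2725, 4669 and 5033 at P5 against 140.1, 91.2 and 87.3 at t0 (log2 fold change 5.28, SE 0.98, adjusted p = 0.000122). NRP1 stood at 2276, 499 and 1232 at P5 against 92.4, 89.1 and 66.7 at t0 (log2 fold change 4.21, SE 0.97, adjusted p = 0.00106), with differentiation 2 lowest at P5. In all 4 genes every P5 library was above every t0 library.

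The other 5 calls were smaller. NRP2 rose by 1.59 on the log2 scale and PLXNA3, a receptor for secreted semaphorins with NRP2, by 1.08. The ligands SEMA3G, SEMA4B and SEMA4G had log2 fold changes of -1.72, -1.34 and -1.34. Without differentiation 2 only SEMA4A, SEMA6B and NRP2 stayed called (adjusted p = 0.000493, 0.000527 and 0.00443, edgeR), beside 3.49% and 5.1% of all genes called higher and lower, and without differentiation 3 the count was 6 of 31, beside 4.45% and 5.75% of all genes called higher and lower. DESeq2 called the same 13 members and also SEMA3B (log2 fold change 1.60, adjusted p = 0.00783) and SEMA3D (-2.75, 0.00506), beside 6.51% and 8.93% of all genes. The hESC marker sum was between 112.9 and 164.3 TPM at P5 against at least 3082 TPM at t0, and the NC marker sum between 185.3 and 395.6 TPM against at most 17.2 TPM. The paraxial mesoderm sum was between 57.1 and 95.2 TPM against between 7.3 and 9.7 TPM. Of that list, MEOX1 and TCF15 were under 1 TPM in all P5 libraries, so the P5 sum came from its other genes. The NMP sum was between 28.6 and 97.7 TPM against between 14.9 and 17.4 TPM. The part of these lists in the changes was not tested.

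In the late cultures PLXNC1, SEMA3F, SEMA4G and SEMA6C were higher than at P5. Against the P8 libraries, P9 and P10 together gave 0 of 31 members called, beside 0.781% and 0.467% of all genes called higher and lower. At an unadjusted p under 0.05 there were 15 members (26.3% of all genes), and DESeq2 called 3 (SEMA3F, NRP1 and PLXNC1, all higher), beside 2.18% and 1.22% of all genes called higher and lower. Members had a median log2 fold change of 0.18 and all genes one of -0.02. At an adjusted p under 5%, where 2.19% and 1.39% of all genes were called higher and lower, PLXNC1 alone passed (log2 fold change 2.83, SE 0.81, adjusted p = 0.0288). NRP2 and PLXNA1 had adjusted p of 0.00787 and 0.00624 but log2 fold changes of 0.99 and 0.62, under the 2-fold threshold, and SEMA5B (log2 fold change -3.28, adjusted p = 0.00755) had a mean of 30.5 normalized counts, under the minimum of 100.

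Without the P10 library of differentiation 1, edgeR called 4 members between P8 and the late groups, where 2.2% and 2.47% of all genes were then called higher and lower. These were SEMA3A (log2 fold change -2.31, adjusted p = 0.000218), SEMA3F (1.97, 0.00813), SEMA6C (adjusted p = 0.00436) and PLXNC1 (3.07, 0.00214). SEMA3A, the secreted repellent that acts through NRP1, shows how far that library lay from the others. It stood at 3606, 3045 and 2123 at P8, at 1358 and 1021 in the 2 libraries at P9 and at 4801, 153 and 458 at P10, where differentiation 1 was higher than any P8 library and the other two were under all of them.

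Set against P5, a comparison also added after the data had been seen, P9 and P10 gave 4 members called higher and 0 lower, beside 3.57% and 1.39% of all genes. Members had a median log2 fold change of 0.48 and all genes one of 0.03. DESeq2 called the same 4 members, and also SEMA3C higher (log2 fold change 2.135, adjusted p = 0.00123) and SEMA3A lower (-2.01, 0.00718). It called 4.63% and 1.87% of all genes higher and lower. PLXNC1, the receptor of SEMA7A, stood at 74.2, 242 and 229 at P5, 3661 and 1356 at P9 and 157, 1837 and 8274 at P10 (log2 fold change 3.99, SE 0.87, adjusted p = 0.00201). The P10 library of differentiation 1 lay within the P5 range and the other 4 late libraries above it. SEMA3F stood at 176, 321 and 344 at P5, 1049 and 1463 at P9 and 185, 1705 and 1668 at P10 (log2 fold change 2.21, SE 0.59, adjusted p = 0.00826), again with the P10 library of differentiation 1 within the P5 range. SEMA4G stood at 194, 214 and 217 at P5, 553 and 785 at P9 and 489, 526 and 845 at P10 (log2 fold change 1.66, SE 0.30, adjusted p = 0.000418), with every late library above every P5 library. SEMA6C stood at 908, 1066 and 968 at P5, 1474 and 3097 at P9 and 892, 2286 and 3026 at P10 (log2 fold change 1.11, SE 0.26, adjusted p = 0.00334), with the P10 library of differentiation 1 under the P5 values.

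Calls over all genes, like those of the members, were nearly all lost without differentiation 2 or 3. Without differentiation 2, 0 of the 4 members stayed called by edgeR, beside 0.0177% of all genes in each direction, and without differentiation 3 again 0, beside 0.00952% and 0.0143%. When the model held only the P5, P9 and P10 libraries, 0 members and 0 genes in all were called. Without differentiation 1 there were 10 members called, beside 4.37% and 2.8% of all genes called higher and lower. Without the single P10 library of differentiation 1 there were 5, the same 4 and SEMA3A (log2 fold change -3.16, adjusted p = 4.89e-06, edgeR), beside 4.35% and 2.82% of all genes. Without the replicate block, 2 were called, as SEMA3F and SEMA6C then had adjusted p of 0.0234 and 0.0246 by edgeR. The share of all genes called without the block is not given here, so this loss cannot be set against it. NC marker sums were 1000.6 and 887 TPM at P9 and 186, 809 and 892 TPM at P10, against between 185.3 and 395.6 TPM at P5. SOX10 went against these sums. It was under 1 TPM in all P9 and P10 libraries, whereas no NC marker was under 1 TPM in all P5 libraries. Epithelial progenitor marker sums were 32.0 and 36.0 TPM at P9 and 444.7, 15.4 and 25.4 TPM at P10, against between 320.2 and 626 TPM at P5. Neuron marker sums were 165.7 and 478.6 TPM at P9 and 292.8, 455.3 and 429.9 TPM at P10, against between 168.7 and 252.5 TPM at P5. The part of these lists in the members' values was not tested.

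Most receptors and several ligands had higher values in the MES than in the EPI fraction of the same culture, but no member passed the threshold used for the time course in the model of all 12 fraction libraries. With only the 6 P5 fraction libraries in the model, edgeR called SEMA3C (log2 fold change 1.51, adjusted p = 0.0093) and PLXNA2 (1.20, 0.00945) higher in MES at P5, beside 215 genes called in all. At P5, 0 of 31 members were called in either direction by edgeR, beside 0% of all genes in each direction. At an unadjusted p under 0.05 there were 17 members (25% of all genes), and DESeq2 called 3 (SEMA3C, SEMA5A and NRP2, all higher in MES), beside 1.81% and 1.64% of all genes called higher and lower. At an adjusted p under 5%, where 1.24% and 1.27% of all genes were called higher and lower, 3 members were called higher in MES and 0 lower. The median log2 difference, MES against EPI, was 0.55 over the members and -0.01 over all genes, and 24 of 31 members had a positive value.

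SEMA3C stood at 148, 204 and 179.9 normalized counts in the P5 EPI fractions and 407, 512 and 601 in the P5 MES fractions (log2 fold change 1.52, SE 0.28, adjusted p = 0.0234). SEMA5A stood at 9452, 13351 and 14399 in EPI and 30469, 30566 and 23009 in MES (log2 fold change 1.20, SE 0.29, adjusted p = 0.0441). For both ligands every MES library was above every EPI library. NRP2 stood at 6487, 9318 and 15344 in EPI and 15569, 18253 and 25815 in MES (log2 fold change 1.00, SE 0.17, adjusted p = 0.0184). All 3 MES fractions of NRP2 lay above even the highest EPI fraction, and within each differentiation the MES value was higher. PLXNA1 (log2 difference 0.66, adjusted p = 0.0168) and SEMA4B (-0.57, adjusted p = 0.0192) passed on the adjusted p with less than a 2-fold change.

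Within differentiations, 17 members were higher in the P5 MES than in the P5 EPI fraction in all 3, and 7 were lower in all 3, where 28.5% and 29.7% of all genes tested lay higher and lower in all 3. The higher ones included PLXNA1, PLXNA2, PLXNA4, PLXNB2, PLXND1 and both neuropilins. NRP1 stood at 740.5, 386 and 878 in EPI and 7106, 976 and 1658 in MES, with differentiation 1 far above the rest. The lower ones were SEMA3G, SEMA4A, SEMA4B, SEMA4D, SEMA4F, SEMA5B and PLXNB1. SEMA4D stood at 1793, 1710.3 and 1448 in EPI and 1141, 954 and 549.6 in MES, and its receptor PLXNB1 at 5024, 5704 and 4916 in P5 EPI and 3925, 4294 and 3493 in P5 MES. Ligand and receptor thus lay lower in MES together at P5, without overlap between the fractions, though neither was called. At P8 both genes overlapped between the fractions, and neither lay lower in MES in all 3 differentiations.

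**Figure D4:**
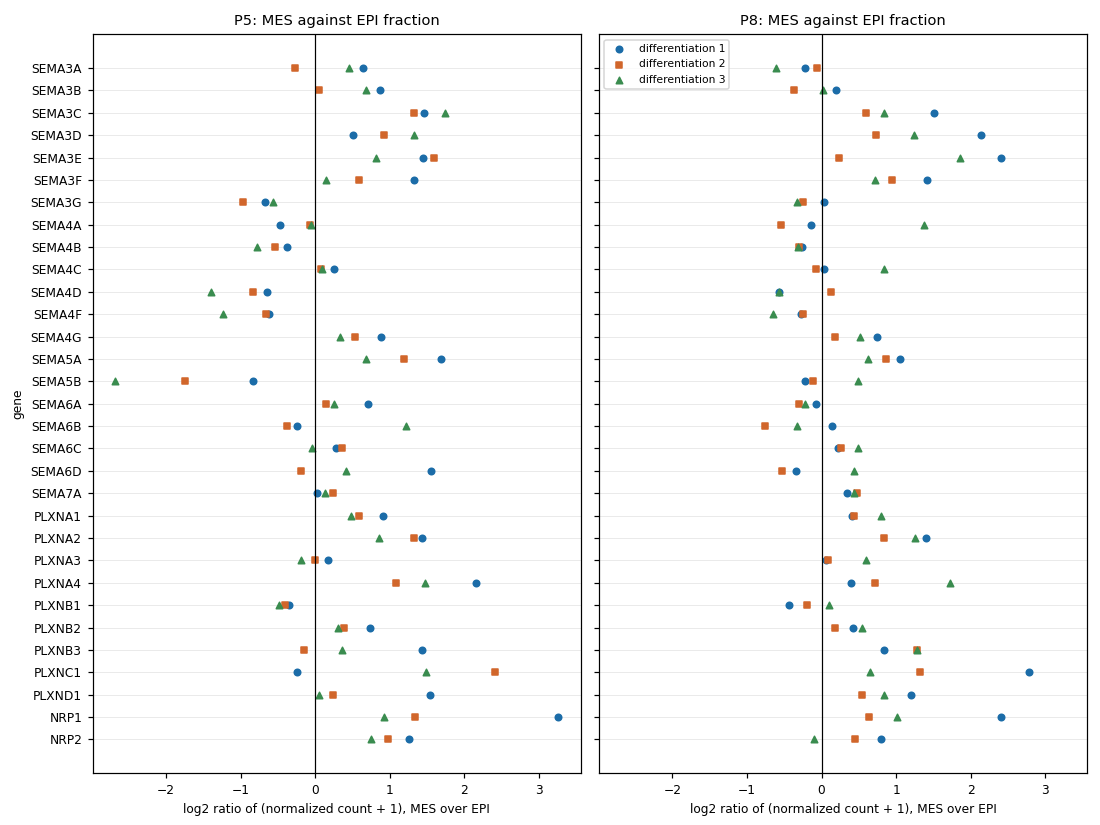
Log2 ratio of the normalized count plus 1, MES over EPI fraction, for each of 31 members in each of 3 differentiations at P5 (left) and P8 (right), with the line at 0 marking equal levels. At P5, 17 members lie right of the line in all 3 differentiations and 7 left of it, and at P8 the numbers are 17 and 4.

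At P8, 0 of 31 members were called by edgeR at an adjusted p under 1%, beside 0% of all genes, or at an adjusted p under 5%, beside 0% of all genes again. DESeq2 also called 0, beside 0.262% and 0.0205% of all genes called higher and lower in MES. At an unadjusted p under 0.05 there were 12 members (11.8% of all genes), and the median log2 difference was 0.37 over the members and -0.01 over all genes. In all 3 differentiations 17 members were higher in MES and 4 lower, where 20.3% and 23.9% of all genes lay higher and lower. SEMA3C stood at 227, 902 and 630.3 in EPI and 652, 1362 and 1126 in MES, which was higher in MES in each differentiation (log2 difference 0.92, adjusted p = 0.318). SEMA5A stood at 9958, 6736 and 14827 in P8 EPI and 20584, 12240.5 and 22808 in P8 MES, also higher in MES in each differentiation. NRP2 stood at 6927, 11463 and 23719.8 in P8 EPI and 12056, 15628 and 22196 in P8 MES, and in differentiation 3 the MES value was the lower one. The change of the MES minus EPI difference from P5 to P8 was called for 0 of 31 members at an adjusted p under 1% or under 5% (0% of all genes in each direction at both), with 2 members at an unadjusted p under 0.05 (5.85% of all genes) and 0 by DESeq2.

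NC marker sums were between 113.5 and 270.6 TPM in P5 EPI and between 416.4 and 500.8 TPM in P5 MES, and between 113.9 and 605.9 TPM in P8 EPI and between 281.5 and 881 TPM in P8 MES. Epithelial progenitor sums were between 468.5 and 766.1 TPM in P5 EPI and between 91.2 and 275.9 TPM in P5 MES, and between 211.1 and 721.3 TPM in P8 EPI and between 73.5 and 498.9 TPM in P8 MES. At P8 the ranges of both lists overlapped between fractions. Sums over 6 neuron markers were between 197.8 and 301 TPM in P5 EPI and between 82 and 168.9 TPM in P5 MES, and paraxial mesoderm sums between 66.5 and 110.4 TPM and between 30 and 55.2 TPM. At P8 the neuron sums lay between 187.5 and 316.6 TPM in EPI and between 166.5 and 426.2 TPM in MES. The paraxial mesoderm sums there lay between 106 and 163.5 TPM in EPI and between 97.3 and 132.5 TPM in MES. Both lists thus overlapped between the fractions at P8. In MES every P8 paraxial mesoderm sum was above every P5 one. However, TBX6 and TCF15 were under 1 TPM in all P8 libraries of both fractions, so those P8 sums came from the other genes of that list. Endothelial marker sums, low throughout, were 1.6, 4.2 and 3.4 TPM in P5 EPI and 8.9, 7.4 and 6.5 TPM in P5 MES, also without overlap. The part of these 5 lists in the members' values was not tested.

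From P5 to P8, edgeR with all 12 fraction libraries called SEMA3C and SEMA6D higher in the EPI fraction at an adjusted p under 5% but not under 1%, and DESeq2 called PLXNA2 lower in both fractions. In EPI, 0 of 31 were called by edgeR, beside 0.23% and 0.0307% of all genes called higher and lower, with 12 members at an unadjusted p under 0.05 (30.6% of all genes) and 4 called by DESeq2 (SEMA3B, SEMA3C and SEMA6D higher, PLXNA2 lower), which called 2.28% and 0.822% of all genes higher and lower. Without differentiation 1, edgeR called SEMA3C higher (log2 fold change 1.99, adjusted p = 0.00578) and PLXND1 lower (-1.16, 0.00837) at under 1%, beside 1.45% and 0.501% of all genes. At an adjusted p under 5% (1.98% and 0.579% of all genes), 2 members were called, both higher at P8. SEMA3C stood at 148, 204 and 179.9 at P5 and 227, 902 and 630.3 at P8 (log2 fold change 1.58, SE 0.28, adjusted p = 0.0206), and SEMA6D at 553, 1117 and 1318 in P5 EPI and 2740.4, 2439.5 and 2168 in P8 EPI (log2 fold change 1.34, SE 0.31, adjusted p = 0.0376). Neither overlapped between the passages. In MES, 0 of 31 were called at either threshold, beside 0.625% and 0.102% of all genes at an adjusted p under 1% and 2.55% and 0.609% under 5%, with 10 members at an unadjusted p under 0.05 (29.7% of all genes) and 1, PLXNA2, called lower by DESeq2, which called 3.02% and 0.816% of all genes higher and lower. PLXNA2 stood at 1856, 3717 and 4734 in P5 EPI and 1365, 959.6 and 1534 in P8 EPI (log2 fold change -1.40, adjusted p = 0.00175 by DESeq2 and 0.0541 by edgeR). In MES it stood at 5012, 9342 and 8536 at P5 and 3623, 1712 and 3659 at P8 (-1.37, adjusted p = 0.00213 by DESeq2 and 0.0557 by edgeR), and neither fraction overlapped between the passages. The median log2 fold changes over the members were 0.32 in EPI and 0.43 in MES, against 0.04 and 0.03 over all genes. The hESC marker sums fell over this step, from between 98.5 and 154.5 TPM to between 33.9 and 68.2 TPM in EPI. In MES they fell from between 139.6 and 213.6 TPM to between 38.9 and 69.5 TPM. Neither fraction overlapped between the passages in these sums. NANOG was under 1 TPM in all libraries of both fractions at both passages, and POU5F1 in all libraries of P5 MES and of both P8 fractions. The sums there came mainly from the other genes of the hESC list. The part of these sums in the members' values was not tested.

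Of the 31 members, 17 were called by edgeR in at least 1 comparison at an adjusted p under 1%, with all libraries of its model, 8 of them in the steps along the course and 9 only in the 2 comparisons added later, and 14 were called in none. Of all 21792 genes tested in either model, 19.5% were called in at least 1 comparison. Of these 14, DESeq2 called SEMA3D at P5 against t0 and SEMA3A in the late groups against P5 (log2 fold change -2.01, adjusted p = 0.00718), and edgeR called SEMA3A, SEMA4D, SEMA6A, SEMA7A, PLXNB2, PLXND1 and SEMA3D each in at least 1 comparison with another set of libraries. The share of all genes called in at least 1 of those sets is not given here, so these calls cannot be set against it. Among the secreted ligands of these 14, SEMA3A ran from 153 to 8275 normalized counts over the 35 whole-culture libraries, SEMA3D from 2.4 to 1038 and SEMA3E, a direct ligand of PLXND1, from 1.2 to 211. SEMA3D reached its highest value at P2, where it stood at 15.9, 819.9 and 1038, and SEMA3E at 36 h, where it stood at 117, 211 and 121. Among the membrane ligands, SEMA4C, a ligand of PLXNB2, kept within 2508 to 6102, SEMA4D ran from 349 to 16587, SEMA4F from 384 to 3028 and SEMA6A from 2196 to 25933. SEMA7A, which is held by a lipid anchor and binds PLXNC1 and integrins, ran from 271 to 1528.

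Among the plexins of these 14, PLXNA1, a receptor shared by many secreted semaphorins, kept within 4035 to 9061 normalized counts, PLXNB1 within 2941 to 6877 and PLXNB2 within 4467 to 17747. PLXND1, the receptor of SEMA3E, ran from 457 to 5732, and PLXNB3, a receptor of SEMA5A, stayed between 5.3 and 108. PLXNA4, a receptor of SEMA6A and of secreted semaphorins, ran from 1.2 to 2034. It stood at 16.4, 1.2 and 3.9 at P1, 84.5, 57.9 and 42.4 at P3, 178, 560.2 and 799 at P5 and 562, 288 and 2034 at P8, so that every P5 and P8 library was above every P1 and P3 library. It passed the test for any change over the 12 time points without passing a step comparison.

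The other genes of the pathway were taken as 3 lists of co-receptors (10 genes), VEGF ligands of the neuropilins (5 genes) and signal transducers (29 genes), all tested. From t0 to 36 h, 3 co-receptors were called lower and none higher, 2 transducers lower and none higher, and no VEGF ligand, beside 1.33% and 1.39% of all genes called higher and lower. FLT1, a VEGF receptor, stood at 9719.8, 8655 and 9821 at t0 and 1541, 925 and 846 at 36 h (log2 fold change -3.27, SE 0.75, adjusted p = 0.00506). RND1, a small GTPase that binds plexins, stood at 344, 327 and 336 at t0 and 190.4, 72.7 and 36.7 at 36 h (log2 fold change -1.95, SE 0.40, adjusted p = 0.00213). From 36 h to P3, 2 co-receptors were called lower and 3 transducers higher, beside 4.23% and 2.79% of all genes. KDR, the main VEGF receptor, stood at 9311, 9088 and 4637 at 36 h and 82.5, 29.5 and 76.2 at P3 (log2 fold change -6.94, SE 1.14, adjusted p = 8.95e-05), and DPYSL5, a collapsin response mediator protein, at 5424, 3159.5 and 3675 at 36 h and 12643, 10582 and 9224 at P3 (log2 fold change 1.43, SE 0.28, adjusted p = 0.000512). With all libraries of its model, edgeR called no gene of the 3 lists from P3 to P5, from P5 to P8 or in the fractions. Of all genes it called 0.00924% higher and 0.00462% lower from P3 to P5, and 0.00462% in each direction from P5 to P8. Between MES and EPI it called 0% of all genes at P5 and at P8. From P5 to P8 it called 0.23% higher and 0.0307% lower in EPI, and 0.625% and 0.102% in MES.

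Between t0 and P5, 1 co-receptor was called higher and 5 lower, 1 VEGF ligand higher, and 4 transducers in each direction, beside 5.96% of all genes called higher and 8.29% lower. CHL1, a cell adhesion molecule that works with NRP1, stood at 14.5, 12.4 and 19 at t0 and 330.2, 394 and 181 at P5 (log2 fold change 4.24, SE 1.29, adjusted p = 0.00915), and KDR at 6722, 6419 and 6286 at t0 and 22.1, 28.3 and 19.3 at P5 (log2 fold change -8.12, SE 1.21, adjusted p = 9.5e-06). VEGFD stood at 6.2, 8.3 and 4.8 at t0 and 36.3, 1466 and 1456 at P5 (log2 fold change 6.67, SE 1.50, adjusted p = 0.000803), with differentiation 1 far under the other two at P5. MICAL2, a monooxygenase of the MICAL family that acts on actin, stood at 131, 115 and 125 at t0 and 1025, 5037 and 1496 at P5 (log2 fold change 4.19, SE 0.84, adjusted p = 0.000262), and DPYSL3 at 59751, 53236 and 51595 at t0 and 7416, 5722 and 4931 at P5 (log2 fold change -3.21, SE 0.36, adjusted p = 1.85e-07).

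In the late groups against P8, 1 transducer was called higher and 1 lower, beside 0.781% and 0.467% of all genes. FARP1, an exchange factor that acts with class A plexins, stood at 9016, 11239.9 and 16229 at P8, 20629 and 28535 at P9 and 10046, 28216 and 36385 at P10 (log2 fold change 1.08, SE 0.21, adjusted p = 0.00382). DPYSL5 stood at 15302, 5568 and 6025 at P8, 2597 and 4012 at P9 and 8432, 3557 and 2637 at P10 (log2 fold change -1.16, SE 0.24, adjusted p = 0.00595). In both genes the P10 library of differentiation 1 lay within the range of the P8 libraries. Without it FARP1 had a log2 fold change of 1.24 (adjusted p = 1.03e-05) and DPYSL5 one of -1.31 (0.000584), and edgeR then called 1 co-receptor, 1 VEGF ligand and 1 transducer higher, and 1 co-receptor and 2 transducers lower, against P8, beside 2.2% and 2.47% of all genes. Against P5, where 3.57% and 1.39% of all genes were called higher and lower, KDR rose again (log2 fold change 5.32, SE 1.06, adjusted p = 0.00105), with 827 and 1575 at P9 and 109, 715 and 1234 at P10, and the other co-receptor called was FLT4 (log2 fold change -1.10, SE 0.28, adjusted p = 0.00679), with 438, 316 and 284 at P5, 199 and 126 at P9 and 150.5, 239.6 and 86 at P10. Of the VEGF ligands 2 were called higher, and PGF, the larger change, stood at 16.6, 60.9 and 92.5 at P5, 779.5 and 435 at P9 and 47.7, 159.7 and 492 at P10 (log2 fold change 2.81, SE 0.76, adjusted p = 0.00876). DPYSL5 was the 1 transducer called, and it fell (log2 fold change -1.70, SE 0.24, adjusted p = 7.96e-05). Without the P10 library of differentiation 1, KDR (log2 fold change 5.63, adjusted p = 0.000175), PGF (3.00, 0.00275) and DPYSL5 (-1.85, 8.51e-06) stayed called against P5 and FLT4 did not (adjusted p = 0.0116). Newly called by edgeR were then the transducers FARP1 (1.09, 2.79e-05) and MICAL2 (-2.56, 0.00107) and the co-receptor NRCAM (-3.35, 4.15e-05). Of all genes 4.35% and 2.82% were then called higher and lower. Over all 12 time points 10 of 10 co-receptors, 5 of 5 VEGF ligands and 21 of 29 transducers passed the test for any change, beside 56% of all genes.

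Some members lie together in the genome, by GENCODE 29 on GRCh38. SEMA3C (chr7:80742538-80922359), SEMA3E, SEMA3A and SEMA3D follow each other on chromosome 7 with gaps of 2.44, 0.31 and 0.5 Mb, and SEMA3F and SEMA3B lie 0.08 Mb apart on chromosome 3. SEMA3C was called higher at 36 h. Its nearest neighbour SEMA3E stood at 117, 211 and 121 at 36 h against 104, 80.8 and 73 at t0, without overlap, and was not called (log2 fold change 0.88, SE 0.66, adjusted p = 0.434). There SEMA3D stood at 55.3, 76.2 and 379 at 36 h against 369.6, 342 and 321 at t0 and SEMA3A at 3582, 3269 and 1037 at 36 h against 3303, 2778 and 3251 at t0, neither called by edgeR or DESeq2. Between t0 and P5 edgeR called SEMA3F lower and did not call SEMA3B, whose P5 libraries all lay above its t0 libraries (log2 fold change 1.59, SE 0.57, adjusted p = 0.0252). DESeq2 called SEMA3B higher, and so did edgeR with only the compared libraries (1.45, adjusted p = 0.00988). SEMA4G overlaps MRPL43 on the other strand, which reached 69.8 TPM, PLXNC1 overlaps CEP83 (34.4 TPM) and PLXNA3 overlaps LAGE3 (23.2 TPM). Whether counting used the strand is not given in the sources used here, so reads of these genes and of their antisense partners cannot be told apart.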

How the data were processed

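RNA-seq was run on 47 libraries of WA09 (H9) cells, 35 from whole cultures and 12 from EPI and MES fractions. According to the submitters' processing notes, the authors trimmed reads with cutadapt 1.16, aligned them to GRCh38 with STAR 2.5.2b and quantified genes with RSEM 1.3.0. The authors deposited expected counts, estimated per gene and not normalized, and TPM, scaled by length and library, for 58051 genes in each library. The annotation release, read filters and strand setting are not given in the sources used here. Symbols were joined from GENCODE 29 by Ensembl identifier (57447 genes matched, 604 did not).

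From the deposited expected counts, rounded to whole numbers (9.33% were not whole), edgeR 4.0.16 (with limma 3.58.1, R 4.3.3) was used with filterByExpr, TMM and quasi-likelihood tests, adjusting p-values over all genes tested by Benjamini-Hochberg. The 35 whole-culture libraries were fitted together (21649 genes, 21 residual degrees of freedom) and the 12 fraction libraries together (19531 genes, 6 residual degrees of freedom), with the differentiation as a block. A call needed an adjusted p under 1%, a change of 2-fold or more and, averaged over the libraries compared, 100 normalized counts or more. The test of any change over 12 time points used the adjusted p alone. Normalized counts were counts scaled by TMM library size over all 47 libraries. TPM served only to compare levels between genes and to sum lists. Upstream sequences and motif counts came from RefSeq promoter windows on GRCh38.p14.

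The replicate number is the differentiation experiment, which per the series description gave all time points, so libraries of the same number were paired. Deviations from group means correlated at 0.654 on average between P5 fractions of the same number and -0.318 between different numbers, over 13297 genes, but at -0.008 between t0 and 36 h. No 2 replicates agreed within counting noise (lowest chi-square per gene 25.4). With the block in the model, average differences in level between differentiations are taken out. The p-values therefore measure how far the changes varied between 3 differentiations of a single line, pooled over all groups of the fit. Beyond the block, the model treats libraries of the same differentiation as independent, though they came from the same passaged cultures.

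The members and lists were chosen with earlier results of these data known, and the comparisons of P5 with t0 and of P9 and P10 with P5 were added after the data had been seen. All members are accounted for. Members called in a comparison are given with all values, or, above 8 calls, the 8 with the largest change, and the other members by their range. For the other pathway lists, values are given for the called gene with the largest change in each direction. Code was tested on simulated data. Alternatives were DESeq2 1.42.0, DESeq2 size factors, no count filter, no block, other sets of libraries, an adjusted p under 5%, no minimum mean, and leaving out each differentiation or the P10 library of differentiation 1. Depth limits the lowest genes, where a count of 0 still allows 3 counts, and this covers counting error only. No deposited columns of comparisons were used.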

Additional observations from a re-analysis of the deposited data

Results flagged for a closer look

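SEMA6A, the transmembrane ligand that led the semaphorins at t0, was the 1 member whose MES to EPI difference pointed one way in all 3 differentiations at P5 and the other way in all 3 at P8. Its log2 ratios of MES to EPI were 0.70, 0.14 and 0.25 at P5 and -0.07, -0.30 and -0.23 at P8, in differentiations 1, 2 and 3. The change of the difference from P5 to P8 was -0.56 on the log2 scale, with an unadjusted p of 0.0213 and an adjusted p of 0.844 over all genes by edgeR, so it did not pass the correction.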

How the results depend on the processing

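The direction of every member change given as called was the same under every alternative run. All 27 such changes also kept their call under DESeq2, DESeq2 size factors, all 47 libraries in 1 fit and an adjusted p under 5%. With no count filter 26 of 27 did (SEMA3F in P9 and P10 against P5 then had an adjusted p of 0.0105), without the replicate block 25, with only the compared libraries 16, without differentiation 1 26, without differentiation 2 4 and without differentiation 3 9. Leaving out each differentiation gave 0 to 6 members called for 36 h against t0 (5 with all), 1 to 6 for P3 against 36 h (5), 0 to 2 for P9 and P10 against P8 (0), 3 to 13 for P5 against t0 (13), 0 to 10 for P9 and P10 against P5 (4), 10 to 29 for any change (27) and 0 to 2 for P8 EPI against P5 EPI (0). With only the compared libraries the numbers were 3 for 36 h against t0, 0 for P3 against 36 h, 0 for P9 and P10 against P5 and 2 for P5 MES against P5 EPI. P9 and P10 against P8 gave 4 without the P10 library of differentiation 1, 1 with all 47 libraries, 3 by DESeq2, 1 at an adjusted p under 5% and 1 with no minimum mean. P5 MES against P5 EPI gave 3 by DESeq2 and 3 at an adjusted p under 5%, P8 EPI against P5 EPI 4 and 2, and P8 MES against P5 MES 1 by DESeq2. Without the replicate block P9 and P10 against P5 gave 2, and no other count of members called moved by over 1.5 times under that change. The causes of these shifts were not tested, but every leave-out also has fewer samples. Counts over all genes moved too. They ran from 90 to 965 for 36 h against t0 (588 as reported), 111 to 2436 for P3 against 36 h (1520), 0 to 58 for P5 against P3 (3), 0 to 155 for P8 against P5 (2), 0 to 1009 for P9 and P10 against P8 (270), 1942 to 5064 for P5 against t0 (3084), 0 to 1598 for P9 and P10 against P5 (1073), 3812 to 15029 for any change (12132), 0 to 673 for P5 MES against P5 EPI (0), 0 to 55 for P8 MES against P8 EPI (0), 0 to 604 for P8 EPI against P5 EPI (51), 0 to 747 for P8 MES against P5 MES (142) and 0 to 2 for the P8 against P5 change of the MES minus EPI difference (0). Another scaling moved the median log2 value of all genes by 0.02 or less. Members with means under 100 normalized counts could not be called, whatever their change.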
